A study of Homo sapiens with 6 samples.

Results

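The 42 genes described here encode proteins that sense damaged DNA, stop the cell cycle and repair the damage, and they were taken as the rows of the deposited expression table whose name equals a listed symbol. A row was found for 41 of the 42 symbols, out of 26810 gene rows in all. No row used here matched RAD17, so it has no value below. All 41 were above the filter on low values. By role, 14 were genes of homologous recombination, 13 of the Fanconi anemia pathway, 3 of mismatch repair, 7 of the damage checkpoint (8 with RAD17), and 4 belonged to end joining or to other processes.

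The RNA came from U-937, an established human leukemia line of monocytic character. The labels give its genotype as a KMT2A-MLLT10 fusion, whereas the line is generally known for a fusion of PICALM with MLLT10. All cells derived from a single clone expressing the nuclease Cas9, and they received by lentivirus either sgMETTL1.3, a guide RNA against METTL1, or the control guide sgNS. Both groups were selected with blasticidin at 10 µg/ml and hygromycin B at 200 µg/ml and were harvested at day 8 to 10. Each group had 3 libraries of poly(A)+ RNA, and the comparison asks how this guide changes transcript levels. With 1 guide, 1 clone and no rescue among the samples, effects of the guide other than loss of METTL1 cannot be told apart from it. Nothing in the labels says that replicates were grown separately, so each p-value rests on library-to-library spread that may be technical.

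Values are given on a spike-in scale, that is, TPM (a read share corrected for transcript length) times a factor that gives the synthetic ERCC RNAs an equal sum in each library. The factor was 1.13 to 1.23 in sgNS and 0.832 to 1.03 in sgMETTL1.3. Each library was made from 300 ng of total RNA. The labels give neither the amount of spike-in nor the step at which it was added, and tie it to no number of cells. For that reason each result is also given as TPM, each library rescaled to the same total without spike-ins. The median log2 fold change of all genes tested was -0.32 on the spike-in scale and 0.01 as TPM. In bulk RNA, fewer cells of a type and less RNA per cell cannot be told apart on either scale. Read depth is unknown. One library stood apart before any comparison. In sgMETTL1.3 replicate 1 the deviation of each gene from the mean of the other libraries of its group followed the GC content of its transcript (Spearman 0.847 over 11752 genes, given as a description). The correlation was -0.751 and -0.748 in sgMETTL1.3 replicates 2 and 3, each set against a mean that includes replicate 1. In sgNS replicates 1 to 3 it was 0.0269, -0.342 and 0.334. Counts of genes called over the set, and single genes whose call changed without sgMETTL1.3 replicate 1, are given with and without that library. Unless stated, other single TPM values include it. The median TPM log2 fold change of the 41 genes was -0.40 with it and -0.35 without it.

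The targeted transcript was checked first. METTL1, which methylates guanosine in tRNA, had values of 19.7, 22 and 20.3 in sgNS and 8.28, 5.94 and 7.42 in sgMETTL1.3. Every sgMETTL1.3 library was below every control (log2 fold change -1.41, SE 0.131, limma adjusted p = 2.41e-06; -1.08 as TPM). Its exons overlap those of CYP27B1 on the same strand, so some reads could belong to either gene. WDR4, its partner subunit, fell from 26.2 ± 1.65 to 11.4 ± 3.21 (SD, n = 3; log2 fold change -1.16, limma adjusted p = 0.000178).

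Cells answer a broken or stalled chromosome with kinases and repair complexes that act in sequence. The kinases ATM and ATR are activated at double-strand breaks and at stretches of single-stranded DNA, and they pass the signal to CHEK2 and CHEK1, which slow the cell cycle. Double-strand breaks are rejoined either by homologous recombination, in which BRCA1, PALB2 and BRCA2 prepare resected DNA for strand exchange with an intact copy, or by end joining, which needs no copy of the sequence. The Fanconi anemia pathway unhooks DNA crosslinks: a core complex, with UBE2T as its ubiquitin-conjugating enzyme, attaches ubiquitin to FANCD2 and FANCI, and USP1 removes it. Mismatch repair corrects copying errors after replication. Transcripts of many of these genes are highest around S phase, and E2F factors and CCAAT-binding proteins are known regulators of S phase genes, so the promoters are shown first.

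RefSeq promoter windows (GRCh38.p14; 250 bases before to 50 bases after each gene's start, 300 in all) were at hand for 36 of the 41 genes, and not for FANCI, NBN, PRKDC, RAD21 and RAD54B. An E2F word (TTTGGCGC, TTTCCCGC, TTTGCCGC or TTTCGCGC, either strand) occurred in 7 of the 36 windows, or 19.4%, against 5.37% of the 9198 windows of genes tested. The pentamer CCAAT, on either strand, occurred in 21 windows, or 58.3%, against 37.3%. The words TTTGAA and TTCGAA, which are forms of the cell cycle homology element, occurred in 6, or 16.7%, against 11.2%. Several matches in 1 window were counted once. These are descriptions of letters in a window and not of binding. Each window sits at a RefSeq start, which can lie inside the gene span of the GENCODE annotation. The BRCA1 window, for example, lies inside the span of 43044295 to 43170245 given below.

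The matches to E2F words are shown because the genes that hold them belong to 3 of the 5 roles. Each is printed in the direction of its gene with the word in capitals (the reverse complement where the word lies on the other strand) and 10 bases on either side.
FANCC, chr9:95317738-95317765, minus strand: tcgtcggaatTTTCCCGCgacgccgcgg
FANCC, chr9:95317864-95317891, minus strand: cggggcttccGCGCGAAAccgggaacac
FANCA, chr16:89816802-89816829, minus strand: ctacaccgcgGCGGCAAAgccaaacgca
FANCD2, chr3:10026425-10026452, plus strand: gtcgggcctgGCGGGAAAgtcgaaaact
MSH6, chr2:47783138-47783165, plus strand: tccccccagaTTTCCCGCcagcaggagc
EXO1, chr1:241848198-241848225, plus strand: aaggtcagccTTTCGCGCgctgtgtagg
PMS2, chr7:6009132-6009159, minus strand: gggaagtattTTTGCCGCcccgcccgga
XRCC2, chr7:152676103-152676130, minus strand: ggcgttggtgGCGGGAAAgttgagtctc
Of these genes, FANCC, FANCA, FANCD2, MSH6 and EXO1 fell on both scales and XRCC2 and PMS2 on the spike-in scale but not as TPM, so a word was present in 5 of 25 windows of genes lower on both scales and in 2 of the other 11. All 3 mismatch repair genes held an E2F word. CCAAT occurred in 13 of the 25 windows and in 8 of the other 11, and the words TTTGAA and TTCGAA in 4 and 2.

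The stretches upstream of genes with the smallest p and of FANCE, which did not pass on the spike-in scale, are shown next for contrast. Only bases outside annotated exons are printed, and the upstream windows of CHEK2 and RAD9A, exonic in whole, are left out.
BRCA1, chr17:43125484-43125609, minus strand, 245 to 120 bases upstream: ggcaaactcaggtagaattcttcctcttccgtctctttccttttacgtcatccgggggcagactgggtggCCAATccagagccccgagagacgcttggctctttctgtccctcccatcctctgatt
RAD18, chr3:8963594-8963675, minus strand, 203 to 122 bases upstream: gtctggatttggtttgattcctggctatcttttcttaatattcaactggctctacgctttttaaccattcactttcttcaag
ATR, chr3:142578827-142578983, minus strand, 250 to 94 bases upstream: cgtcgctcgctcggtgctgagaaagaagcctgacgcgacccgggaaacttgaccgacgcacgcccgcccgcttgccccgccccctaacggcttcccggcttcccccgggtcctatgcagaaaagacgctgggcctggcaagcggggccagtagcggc
FANCE, chr6:35452088-35452337, plus strand, 250 to 1 bases upstream: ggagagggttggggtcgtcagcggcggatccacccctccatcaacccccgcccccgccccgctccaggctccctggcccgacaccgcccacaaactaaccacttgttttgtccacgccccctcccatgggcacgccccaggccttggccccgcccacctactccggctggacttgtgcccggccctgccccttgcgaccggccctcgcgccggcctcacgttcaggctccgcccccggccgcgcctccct
The capitals mark the only word found in these stretches, a CCAAT upstream of BRCA1. The GC content of the stretches ran from 36.6% for RAD18 to 73.6% for FANCE.

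On the spike-in scale 39 of the 41 genes fell in sgMETTL1.3, none rose, and FANCE and RAD9A did not pass the test (limma, Benjamini-Hochberg adjusted p under 0.05 over 12449 genes). Among all genes tested 49.3% were called lower and 6.4% higher. The median log2 fold change of the 41 genes was -0.76, against -0.32 for all genes. In the same 39 genes every sgMETTL1.3 value lay below every control value, which held for 53.4% of all genes tested. As TPM 28 of the 41 genes fell, against 25.3% of all genes, 1 rose, against 24.8%, and 12 did not pass; the median was -0.40 against 0.01. Groups did not overlap as TPM in 35 genes: sgMETTL1.3 was the lower group in 33, against 32.1% of all genes, and the higher group in RAD9A and FANCE, against 30.9%. The 28 genes that fell as TPM also fell on the spike-in scale, on which the scaling places every gene lower by nearly the same step. They were called lower in each of the 19 other fits tried. The genes were chosen with earlier results of these data known, so these counts are descriptions of the set.

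**Figure D1:**
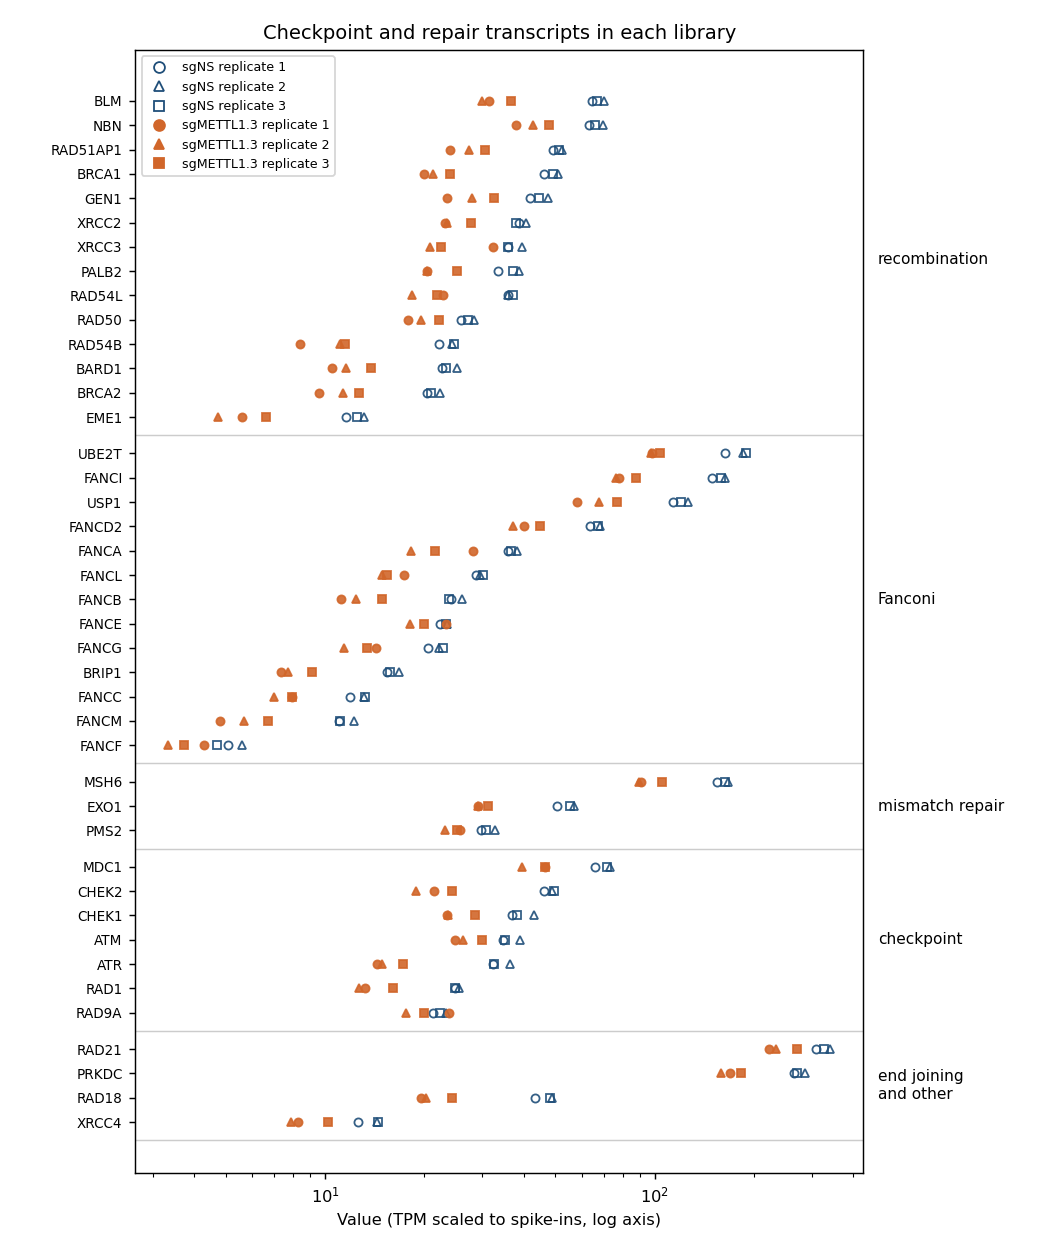
Value of each checkpoint and repair transcript in each of the 6 libraries, on a log axis of TPM scaled to spike-ins, grouped by role and ordered by level in sgNS. Open blue symbols are the 3 sgNS libraries and filled orange symbols the 3 sgMETTL1.3 libraries; the groups are apart in 39 of 41 rows and overlap for FANCE and RAD9A.

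Levels, which are corrected for length, spanned a wide range. RAD21, PRKDC, UBE2T, MSH6, FANCI and USP1 had control means of 325, 274, 180, 162, 157 and 120 on the spike-in scale. FANCF had the lowest, 5.11 ± 0.458 (SD, n = 3). The size of the change showed little relation to level across the 41 genes (Spearman of log2 fold change and control TPM -0.06) or to transcript length (-0.11), as descriptions without a test. Exons of several of these genes overlap a gene of the other strand, among them FANCA (ZNF276), FANCL (VRK2), GEN1 (SMC6), ATM (NPAT), CHEK2 (HSCB) and RAD1 (BRIX1), and without strand in the counting their reads cannot be told apart.

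All 14 recombination genes fell on the spike-in scale, against 49.3% of all genes, with a median log2 fold change of -0.82. As TPM 9 of them fell, against 25.3% of all genes, with a median of -0.48. Leaving out sgMETTL1.3 replicate 1 gave a TPM median of -0.37, with 13 called lower, against 34.3% of all genes in that fit. BRCA1, which with BARD1 forms a ubiquitin ligase that directs breaks to recombination, is a minus-strand gene of chromosome 17 (43044295 to 43170245, GRCh38). Its values were 46.3, 51 and 49.1 in sgNS and 19.9, 21.2 and 23.9 in sgMETTL1.3. Every sgMETTL1.3 library was thus at less than the lowest control, and the mean was 44.4% of the control mean (log2 fold change -1.14, SE 0.109, limma adjusted p = 2.91e-06; -0.79 as TPM, adjusted p = 0.00134). The TPM log2 fold change of BRCA1 was -0.66 once sgMETTL1.3 replicate 1 was left out.

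BLM, the helicase that takes apart joined recombination intermediates, had 64.4, 70.3 and 66.7 in sgNS and 31.4, 30.0 and 36.6 in sgMETTL1.3. The groups were far apart, with the mean at 48.7% of control (log2 fold change -1.02, SE 0.108, limma adjusted p = 6.22e-06; -0.66 as TPM). RAD54B, a DNA translocase related to RAD54L, had 22.1, 24.3 and 24.6 in sgNS and 8.37, 11.1 and 11.5 in sgMETTL1.3 (log2 fold change -1.14, SE 0.131, limma adjusted p = 1.23e-05; -0.79 as TPM). Its lowest value was in sgMETTL1.3 replicate 1, and without that library the TPM difference was -0.60. RAD54B shares exons on its own strand with FSBP, so reads of the 2 genes could be split between them.

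The other 11 recombination genes had log2 fold changes of -1.02 to -0.43 on the spike-in scale. EME1, a partner of the nuclease MUS81, was at -1.02 (-0.70 as TPM), BARD1 at -0.93 (-0.59) and RAD51AP1, which stimulates strand exchange, at -0.88 (-0.53). BRCA2, a mediator of strand exchange, was at -0.87 (-0.53), RAD54L at -0.77 (-0.42) and PALB2, the link between BRCA1 and BRCA2, at -0.71 (-0.36). These 6 fell on both scales. With sgMETTL1.3 replicate 1 left out they were, in this order, at -0.64, -0.44, -0.37, -0.37, -0.41 and -0.24 as TPM, all called lower. The resolvase GEN1, the recombination factors XRCC2 and XRCC3, and NBN and RAD50 of the complex that first binds broken ends fell on the spike-in scale, at -0.67, -0.64, -0.57, -0.62 and -0.43, and did not pass as TPM, at -0.31, -0.29, -0.21, -0.26 and -0.08. Without sgMETTL1.3 replicate 1, GEN1, XRCC2 and NBN were called lower as TPM at smaller values of -0.13, -0.17 and -0.11, and RAD50 was at 0.06 and did not pass.

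XRCC3 had 35.8, 39.7 and 35.9 in sgNS and 32.4, 20.8 and 22.5 in sgMETTL1.3, so replicate 1 lay close to the controls and the other two well below. Its call on the spike-in scale was lost without sgMETTL1.3 replicate 3 (log2 fold change -0.50), and as TPM it was -0.33 and called lower once replicate 1 was left out. XRCC3 also shares exon positions with KLC1, a gene of the other strand, and whether counting used strand is not given in the sources used here.

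Of the 13 Fanconi genes 12 fell on the spike-in scale, against 49.3% of all genes, with a median of -0.83. As TPM 11 of the 13 fell, against 25.3% of all genes, with a median of -0.47. Leaving out sgMETTL1.3 replicate 1 gave a TPM median of -0.39, with 11 called lower and 1 higher. In that fit 34.3% of all genes were called lower and 36.3% higher. FANCI, which with FANCD2 forms the pair that receives ubiquitin at a crosslink, had 149, 164 and 159 in sgNS and 78.0, 76.4 and 87.6 in sgMETTL1.3. No sgMETTL1.3 library came near the controls (log2 fold change -0.96, SE 0.0997, limma adjusted p = 5.59e-06; -0.60 as TPM). UBE2T, the conjugating enzyme of the pathway, had 164, 185 and 189 in sgNS and 98.2, 97.8 and 104 in sgMETTL1.3 (log2 fold change -0.83, SE 0.0987, limma adjusted p = 1.45e-05; -0.47 as TPM). FANCL, the ubiquitin ligase subunit of the core complex, had 28.7, 29.6 and 30.1 against 17.4, 14.9 and 15.4 (log2 fold change -0.85, SE 0.11, limma adjusted p = 2.77e-05; -0.51 as TPM). The FANCL and UBE2T transcripts were thus at 54% and 55.8% of control on the spike-in scale, with the 3 libraries of each group close together. As TPM their means were 17.8 and 112 in sgMETTL1.3 against 25.7 and 156 in sgNS.

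The remaining members of the pathway that fell on both scales were BRIP1, a helicase that binds BRCA1 (-0.91 on the spike-in scale), FANCM, which recruits the core complex to DNA (-0.90), the core subunits FANCB (-0.89), FANCG (-0.71), FANCA (-0.71) and FANCC (-0.67), the deubiquitinase USP1 (-0.83) and FANCD2 (-0.69). As TPM these 8 were between -0.57 and -0.34, and between -0.45 and -0.26 with sgMETTL1.3 replicate 1 left out. USP1 went from -0.47 to -0.30 as TPM when sgMETTL1.3 replicate 1 was left out, and still passed. FANCA had 28.1 in sgMETTL1.3 replicate 1 against 18.2 and 21.6 in the others, all below the lowest control of 36. FANCF, an adaptor of the core complex, had 5.06, 5.60 and 4.68 in sgNS and 4.30, 3.34 and 3.73 in sgMETTL1.3 (log2 fold change -0.35, limma adjusted p = 0.036). That call was kept in 1 of 6 fits that left out a library. It was the fit without sgMETTL1.3 replicate 1, where limma pooled the spread fully over genes. In the other 5, each without one of the remaining libraries, the call was lost and the log2 fold change lay between -0.41 and -0.29.

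FANCE, the core subunit that binds FANCD2, was the member of the pathway that did not pass on the spike-in scale. It lies on chromosome 6 at positions 35452356 to 35467103. Its values were 22.3, 23.5 and 23.2 in sgNS and 23.3, 18.1 and 19.9 in sgMETTL1.3, so replicate 1 was level with the controls and replicates 2 and 3 were below them (log2 fold change -0.17, SE 0.118, limma adjusted p = 0.239). As TPM it had 20.4, 19.8 and 19.9 against 23.6, 22.9 and 21.8, all sgMETTL1.3 libraries above all controls, and the log2 fold change was 0.18 (limma adjusted p = 0.0544). Without sgMETTL1.3 replicate 1 it was called lower on the spike-in scale, at -0.26, and higher as TPM, at 0.15. In that spike-in fit limma pooled the spread fully over genes.

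The 3 mismatch repair genes fell on the spike-in scale and 2 of them fell as TPM, against 49.3% and 25.3% of all genes. EXO1, the exonuclease that removes the mismatched strand, had 50.5, 57.1 and 55.3 in sgNS and 29, 29 and 31.1 in sgMETTL1.3 (log2 fold change -0.85, SE 0.102, limma adjusted p = 1.67e-05; -0.49 as TPM). MSH6, which recognises mismatches, had 155, 167 and 164 against 90.9, 89.9 and 105 (log2 fold change -0.76, SE 0.101, limma adjusted p = 3.44e-05; -0.40 as TPM). In both genes the highest sgMETTL1.3 library was well below the lowest control.

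PMS2, which nicks the strand to be repaired, moved less. It had 29.8, 32.8 and 30.8 in sgNS and 25.7, 23.1 and 25.1 in sgMETTL1.3 (log2 fold change -0.33, SE 0.105, limma adjusted p = 0.0178). As TPM the groups overlapped, at 27.3, 27.5 and 26.4 against 26.0, 29.2 and 27.5, and the log2 fold change was 0.02 (limma adjusted p = 0.795). The spike-in call was lost without sgNS replicate 2, at -0.29, and without sgNS replicate 3, at -0.33. PMS2 has many pseudogenes of near-identical sequence, so its reads may be shared with them and its values are uncertain.

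Of the 7 checkpoint genes with a row 6 fell on the spike-in scale, against 49.3% of all genes, with a median of -0.65. As TPM 4 fell, 1 rose and 2 did not pass, with a median of -0.30. On that scale 25.3% of all genes were called lower and 24.8% higher. CHEK2, the kinase downstream of ATM, is a minus-strand gene of chromosome 22 (28687743 to 28742422). It had 46.2, 48.8 and 49.6 in sgNS and 21.4, 18.9 and 24.2 in sgMETTL1.3, a mean of 44.6% of control with no overlap (log2 fold change -1.13, SE 0.113, limma adjusted p = 4.08e-06; -0.78 as TPM, adjusted p = 0.000449). CHEK2 also has named pseudogenes that may share reads with it.

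ATR, the kinase that responds to single-stranded DNA at stalled forks, is a minus-strand gene of chromosome 3 (142449235 to 142578826). It had 32.4, 36.3 and 32.6 in sgNS and 14.4, 14.9 and 17.2 in sgMETTL1.3, a mean of 45.8% of control (log2 fold change -1.08, SE 0.114, limma adjusted p = 6.06e-06; -0.73 as TPM). RAD1, a subunit of the ring-shaped clamp that is loaded at damage and helps to activate ATR, had 24.7, 25.4 and 24.7 against 13.2, 12.7 and 16.1 (log2 fold change -0.80, SE 0.118, limma adjusted p = 8.61e-05; -0.46 as TPM). MDC1, the scaffold that gathers repair proteins at breaks, fell by 0.65 on the log2 spike-in scale and by 0.30 as TPM, and both changes passed.

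ATM and CHEK1 fell on the spike-in scale and did not pass as TPM with all libraries. ATM, the kinase activated by double-strand breaks, had 34.7, 39.0 and 35.2 in sgNS and 24.7, 26.2 and 29.9 in sgMETTL1.3 (log2 fold change -0.42, SE 0.112, limma adjusted p = 0.00618). As TPM the ATM groups overlapped, at 31.8, 32.8 and 30.1 against 25.1, 33.0 and 32.8, where replicate 1 was the low one; the TPM log2 fold change was -0.07 with that library and 0.06 without it, and neither passed. CHEK1, the kinase downstream of ATR, was at -0.63 on the spike-in scale and at -0.27 as TPM (limma adjusted p = 0.0751), with sgMETTL1.3 below sgNS in all libraries on both scales. As TPM without sgMETTL1.3 replicate 1 it was at -0.16 (limma adjusted p = 0.0168), and with GC correction at -0.15 (limma adjusted p = 0.0322), both called lower. CHEK1 shares exons on its own strand with STT3A.

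RAD9A, another subunit of the clamp, was the 1 gene of the 41 that rose as TPM. It had 21.3, 23.3 and 22.3 in sgNS and 23.7, 17.6 and 19.9 in sgMETTL1.3 on the spike-in scale, where the groups overlapped (log2 fold change -0.13, SE 0.124, limma adjusted p = 0.375). As TPM it had 19.5, 19.6 and 19.1 in sgNS and 24.0, 22.1 and 21.8 in sgMETTL1.3, all above the controls (log2 fold change 0.21, limma adjusted p = 0.034). Without sgMETTL1.3 replicate 1 the TPM difference was 0.17 and still passed, and with a correction for GC content it was 0.05 and did not pass. RAD9A shares exon positions with PPP1CA on the opposite strand.

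The 4 genes of end joining and other processes fell on the spike-in scale, against 49.3% of all genes, with a median of -0.64. As TPM 2 of them fell, against 25.3% of all genes. RAD18, the ubiquitin ligase that marks PCNA at damaged templates, had 43.3, 48.7 and 48.1 in sgNS and 19.5, 20.3 and 24.2 in sgMETTL1.3 (log2 fold change -1.10, SE 0.115, limma adjusted p = 5.6e-06; -0.75 as TPM). Its TPM log2 fold change was -0.62 once sgMETTL1.3 replicate 1 was left out. PRKDC, the catalytic subunit of the DNA-dependent protein kinase, had 265, 286 and 271 against 169, 159 and 183 (log2 fold change -0.68, SE 0.0967, limma adjusted p = 5.87e-05; -0.32 as TPM). XRCC4, which holds the ligase of end joining, had 12.6, 14.4 and 14.5 against 8.27, 7.90 and 10.2 (log2 fold change -0.61, SE 0.128, limma adjusted p = 0.00131; -0.27 as TPM, not passed). Without sgMETTL1.3 replicate 1, XRCC4 was at -0.17 as TPM and was called lower (limma adjusted p = 0.038).

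RAD21, a cohesin subunit needed to hold sister chromatids together, was the most abundant of the 41 and among the least changed. It had 308, 341 and 327 in sgNS and 223, 233 and 271 in sgMETTL1.3 (log2 fold change -0.43, SE 0.103, limma adjusted p = 0.00328). As TPM it was 283, 287 and 280 against 225, 294 and 298, so replicate 1 was low and replicates 2 and 3 were above the controls, and the log2 fold change was -0.07. Without replicate 1 the TPM log2 fold change was 0.06 and was called higher.

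**Figure D2:**
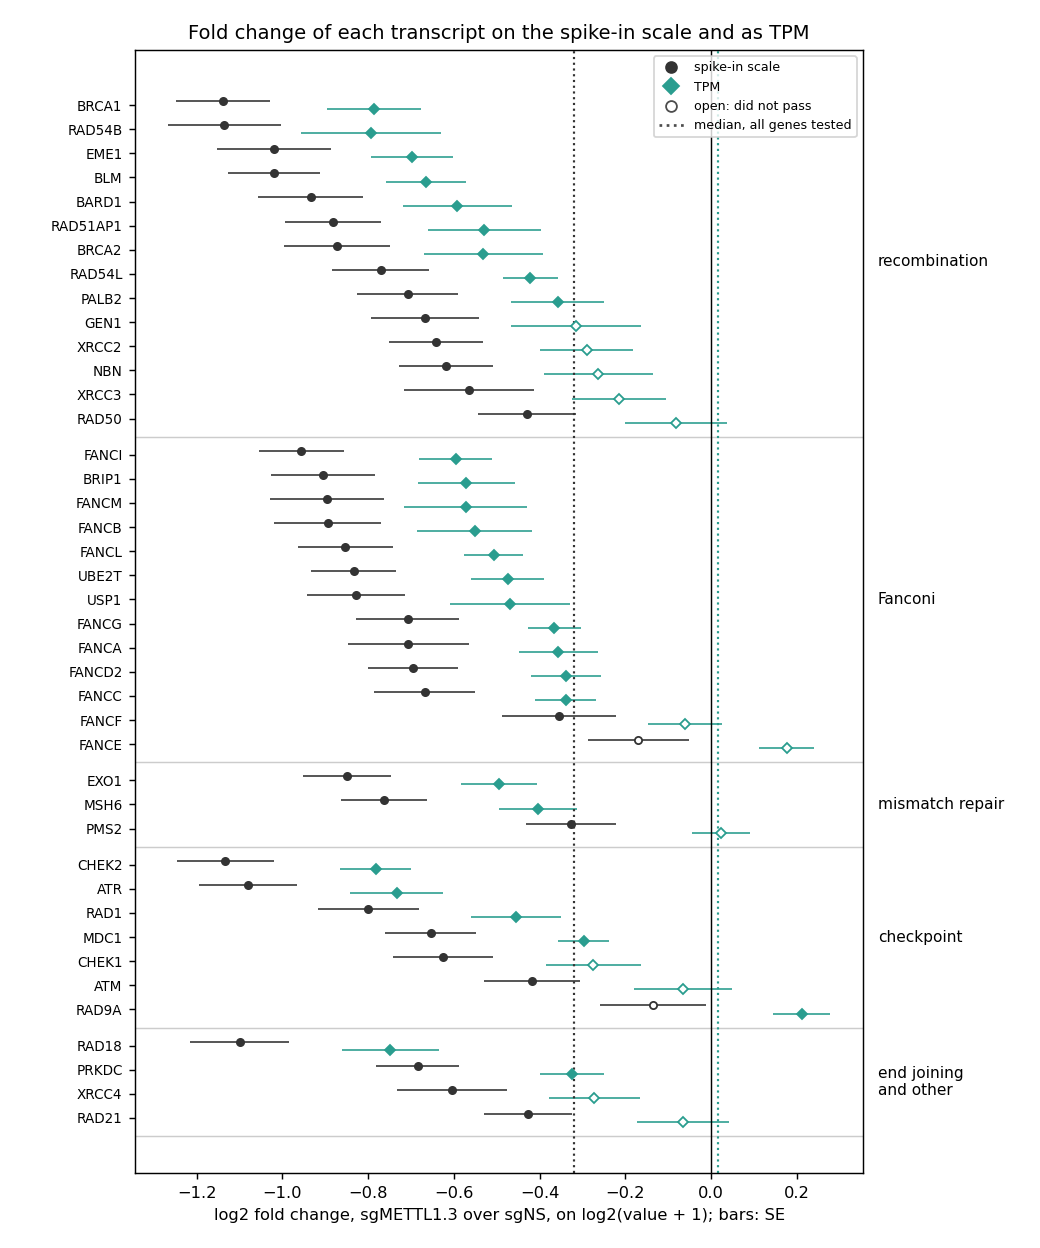
Log2 fold change of each transcript, sgMETTL1.3 over sgNS, on the spike-in scale (dark circles) and as TPM (green diamonds), with the standard error as bars; open symbols did not pass the test and dotted lines mark the median of all genes tested, -0.32 and 0.01. BRCA1, RAD54B, CHEK2, RAD18 and ATR lie farthest to the left, and FANCE, RAD9A and, by a small margin, PMS2 lie to the right of 0 as TPM.

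Of the 41 genes, 7 (BRCA1, RAD54B, CHEK2, RAD18, ATR, BLM and EME1) fell by at least 1 on the log2 spike-in scale, which was the case for 6.78% of all genes tested. They came from 3 of the 5 roles, and none was a Fanconi or mismatch repair gene. At the other end, the log2 fold changes of RAD50, RAD21, ATM, FANCF, PMS2, FANCE and RAD9A were at or above -0.43. Changing the scale divides all values of a library by the same number. It therefore moves every gene by nearly the same step and leaves their order nearly as it was, which is not a result about these genes.

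Ratios between partner transcripts in the same library do not depend on the scale, since the factor of the library cancels. The 8 pairs were chosen with results known, and 3 libraries against 3 cannot give an exact permutation p below 0.1, so they are given as descriptions. Whether a ratio is lower or higher depends on which gene is put first. How often ratios of other gene pairs keep the groups apart was not counted. The ratio of ATR to ATM was 0.933, 0.933 and 0.929 in sgNS and 0.581, 0.567 and 0.574 in sgMETTL1.3. The libraries of a group hardly differed, and the 2 transcripts have nearly the same GC content (40.02% and 39.08%). The ratio of CHEK2 to CHEK1 was 1.25, 1.14 and 1.3 in sgNS and 0.916, 0.801 and 0.848 in sgMETTL1.3, so CHEK2 was the more abundant of the 2 kinases in every control and the less abundant in every sgMETTL1.3 library.

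Among physical partners, the ratio of FANCI to FANCD2 was 2.37 ± 0.0278 in sgNS and 1.98 ± 0.0619 in sgMETTL1.3, that of NBN to RAD50 2.44 ± 0.0152 and 2.15 ± 0.0342, and that of BRCA1 to BARD1 2.06 ± 0.0518 and 1.82 ± 0.0794 (SD, n = 3 each). In these 3 pairs the sgMETTL1.3 values lay below all controls by a small margin. The clamp subunits RAD1 and RAD9A had a ratio of 1.16, 1.09 and 1.10 in sgNS and of 0.557, 0.721 and 0.809 in sgMETTL1.3. Here replicate 1 was the lowest and the GC contents differ (42.1% and 60.6%). Without replicate 1 the log2 difference of this ratio went from -0.70 to -0.55. RAD54B to RAD54L was 0.652 ± 0.0298 against 0.5 ± 0.121, again with replicate 1 lowest at 0.368, and its log2 difference went from -0.41 to -0.20 without that library. UBE2T to USP1, the enzymes that add and remove the ubiquitin on FANCD2, was 1.49 ± 0.0751 against 1.5 ± 0.173, and the groups overlapped.

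**Figure D3:**
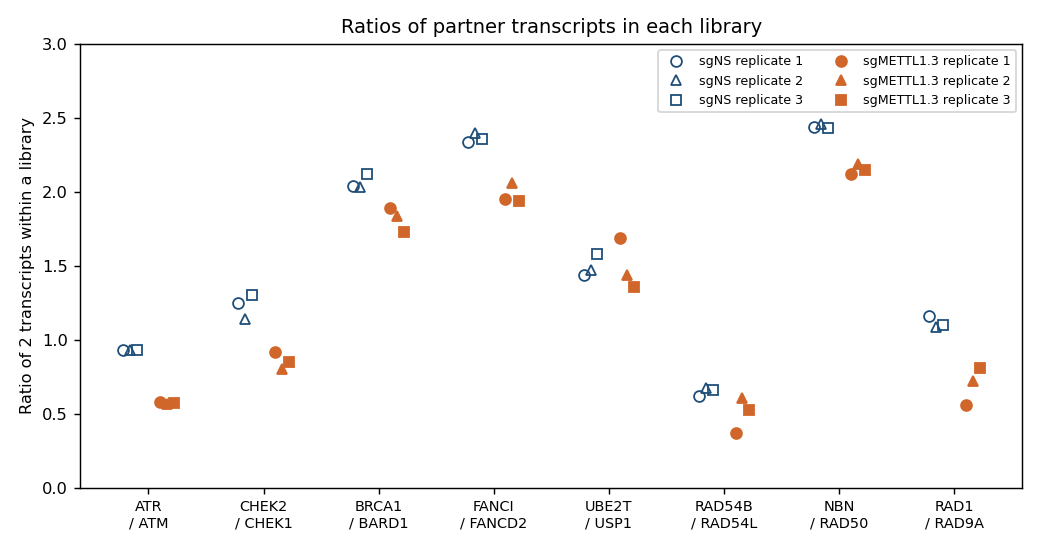
Ratio of 2 partner transcripts within each library, for 8 pairs; open blue symbols are the sgNS libraries and filled orange symbols the sgMETTL1.3 libraries. The sgMETTL1.3 points lie apart from the sgNS points in 7 pairs, below them with the gene order chosen, and overlap them for UBE2T and USP1. The 3 ATR to ATM ratios of each group nearly coincide.

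The GC content of the transcripts was low in this set, with a median of 41.9% and a range of 36% to 62.5%, against a median of 48.9% for all genes tested. The value of sgMETTL1.3 replicate 1 relative to replicates 2 and 3 followed it, with a Spearman correlation of 0.854 over the 41 genes, which share these libraries. Of the 32 genes under 50% GC, replicate 1 was the lowest sgMETTL1.3 library in 19, the middle in 10 and the highest in 3. Of the 9 genes at or over 50% GC it was the lowest in 0, the middle in 3 and the highest in 6. XRCC3, at 62.5%, had the highest ratio, 1.29, and RAD54B, at 37.5%, the lowest, 0.637.

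Without sgMETTL1.3 replicate 1, 34 of the 41 genes were lower as TPM, against 34.3% of all genes, and RAD9A, FANCE and RAD21 were higher, against 36.3%. On the spike-in scale 40 were lower without that library, against 61.4%, in a fit whose spread limma pooled fully over genes. With a GC correction in each library, each of the 41 genes was called lower on the spike-in scale, against 57.8% of all genes. That fit gave BRCA1 a limma adjusted p of 7.67e-23 at an SE of 0.101, against 2.91e-06 at 0.109 in the main fit. Its calls thus rest on a spread pooled more strongly over genes. As TPM with the correction 31 were lower, against 33.4%, and none was higher. The median was -0.71 on the spike-in scale with the correction and -0.36 as TPM. The correction also removes any part of the guide's difference that follows GC. As TPM without replicate 1, the median log2 fold change was -0.36 for the 32 genes under 50% GC and -0.33 for the 9 at or over 50%.

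**Figure D4:**
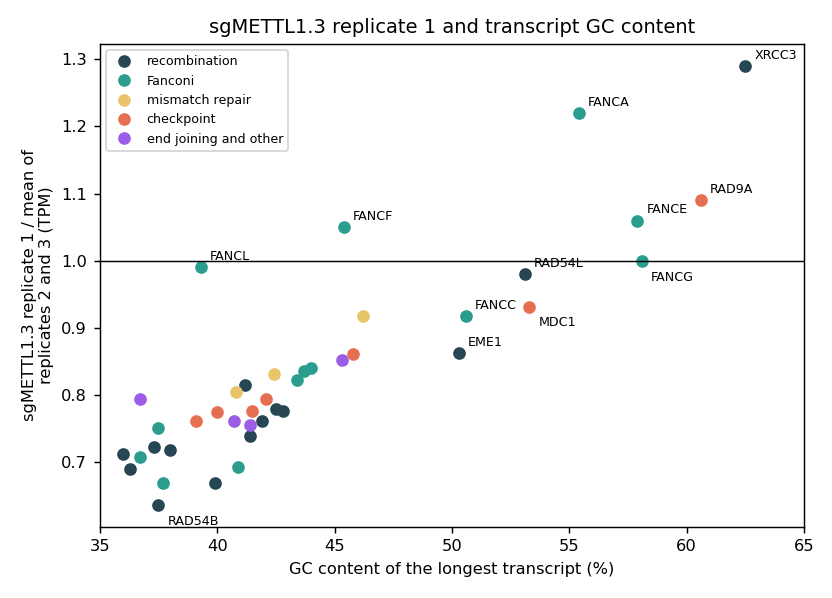
For each of the 41 transcripts, the TPM of sgMETTL1.3 replicate 1 divided by the mean of replicates 2 and 3, against the GC content of its longest transcript in percent, coloured by role. Points rise from 0.637 for RAD54B to 1.29 for XRCC3; the horizontal line marks a ratio of 1.

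The other genes of these pathways, from lists of 123 repair genes that hold none of the 42, are given for comparison, without a test of the difference. Of 121 tested, 86 fell on the spike-in scale, 2 rose and 33 did not pass, with a median of -0.56. As TPM 50 fell, 13 rose and 58 did not pass, with a median of -0.21. These counts stand beside 49.3% and 25.3% of all genes called lower, and 6.4% and 24.8% called higher. By list, other mismatch repair genes had 3 of 4 lower on both scales. Other Fanconi genes had 5 of 11 lower on the spike-in scale and 2 of 11 as TPM, where 3 rose. Those Fanconi shares, 45.5%, 18.2% and 27.3%, were near the shares of all genes.

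In recombination, RMI1, which works with BLM, fell from 36.6 ± 2.15 to 13.6 ± 1.82 (SD, n = 3; log2 fold change -1.37, limma adjusted p = 1.69e-06) and the helicase MCM8 by 0.99 on the log2 scale, and 24 of 31 fell. Among other mismatch repair genes PMS1 was at -1.30. Among other Fanconi genes RFWD3, a ubiquitin ligase, was at -0.79 and CENPS (listed under its older name APITD1), which binds FANCM, at -0.64. Among other checkpoint genes TIPIN, which keeps the fork intact, was at -1.21 and RHNO1, a partner of the clamp, at -1.08, and 13 of 18 fell. The end joining proteins XRCC5 and XRCC6, which together form the Ku ring on broken ends, were at -0.88 and -0.57, and 6 of 7 fell. All of these 9 genes also fell as TPM. On that scale 16 of the 31 recombination, 8 of the 18 checkpoint and 3 of the 7 end joining genes were called lower, against 25.3% of all genes.

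In base excision and single-strand break repair, 14 of 20 fell, led by the nuclease APEX1 at -1.15 and TDP1 at -0.97. In nucleotide excision repair 15 of 20 fell, led by the damage sensor DDB2 at -1.15 and GTF2H3, a TFIIH subunit, at -1.06. In translesion synthesis 6 of 10 fell, led by the primase PRIMPOL at -1.17 and HLTF at -0.98. These are counts on the spike-in scale, where 49.3% of all genes were called lower. As TPM 9 of 20, 7 of 20 and 2 of 10 were lower, against 25.3% of all genes. On that scale 4, 2 and 1 were higher, against 24.8%, and the median of the translesion genes was -0.0035. Of the other repair genes, 2 rose on the spike-in scale. They were CDC25B, a phosphatase that drives entry into mitosis, at 0.49 and the glycosylase NEIL1 at 0.64, named after their values were seen.

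A list of 40 replication and S phase genes moved with the checkpoint and repair genes. On the spike-in scale 38 fell, against 49.3% of all genes, with a median of -0.88. As TPM 33 fell, against 25.3%, with a median of -0.52, and RRM2 rose, against 24.8% called higher. The helicase subunit MCM6 went from 635 ± 20.8 to 217 ± 17.1 (SD, n = 3; log2 fold change -1.55, limma adjusted p = 1.76e-07), and TYMS, which makes thymidylate, fell by 1.43 on the log2 scale. How far a change in the share of cells in S phase takes part in the values of the repair genes was not tested.

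**Figure D5:**
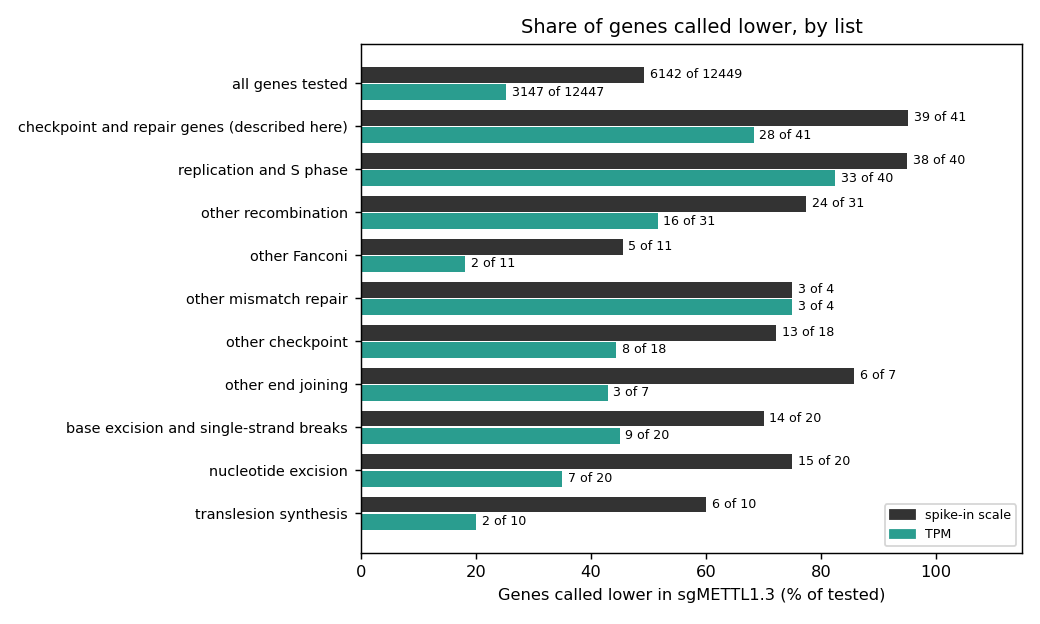
Percent of tested genes called lower in sgMETTL1.3 on the spike-in scale (dark bars) and as TPM (green bars), for all genes, the checkpoint and repair genes described here and 9 other lists, with the counts at the bar ends. The genes described here, at 39 and 28 of 41, and the replication list, at 38 and 33 of 40, have the longest dark bars.

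The labelled cell type was checked against its markers. Of 14 genes of monocytic leukemia cells 12 had a mean of at least 1, and MPO and ELANE were below it; their summed level was 2940 to 3170 in sgNS and 2060 to 2590 in sgMETTL1.3. Of these 12, 7 were called lower on the spike-in scale and 0 higher, against 49.3% and 6.4% of all genes. As TPM 4 of 12 were called lower and 2 higher, against 25.3% and 24.8% of all genes, with a median log2 fold change of -0.06. All sums of marker genes given here are on the spike-in scale. A mean of at least 1 was also reached by 4 of 6 B cell and 2 of 7 T and natural killer genes. The same held for 1 of 8 erythroid and megakaryocytic, 2 of 8 fibroblast and endothelial and 0 of 6 epithelial genes. Among the genes listed for other cell types, MS4A1, CD3D, CD3G, KLRD1, HBA1, HBB, PF4, COL1A2, KRT18, KRT19 and KRT5 were at 0 in every library. The sum of 6 B cell genes was 28.9 to 34.0 in sgNS and 42 to 57.2 in sgMETTL1.3, that of 7 T and natural killer genes, nearly all of it NKG7, 306 to 341 and 161 to 244, and that of 6 epithelial genes at most 0.199. Sums for 8 erythroid and megakaryocytic genes were 3.66 to 4.08 and 2.09 to 3.24, and for 8 fibroblast and endothelial genes 46 to 49.8 and 35.9 to 40.1. The part of these marker changes in the values of the repair genes was not tested.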

How the data were processed

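Poly(A)+ RNA of U-937 cells was measured in 3 sgNS and 3 sgMETTL1.3 libraries, made from 300 ng of total RNA with ERCC spike-ins, per the labels' protocols. The submitters' processing notes name cutadapt, STAR, RSEM and the builds GRCh38 and hg38; their versions, the annotation and any use of strand are not stated there. As read from the values, each deposited signal column is TPM times a library's own factor, which sets the sum of the 92 spike-in rows equal. Depth is therefore unknown, and counting intervals are left out. The share of spike-ins was 3.22 ± 0.144% for sgNS and 4.12 ± 0.44% for sgMETTL1.3 (SD over 3 libraries), and libraries listed 12134 to 12505 genes at a value of at least 1. Of 26902 rows, 28 bore date-like names and none of these is named.

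The 12449 genes that reached 1 in 3 or more of the 6 libraries were tested with limma 3.58.1 (R 4.3.3) on log2(value + 1), using a trend, robust estimation and no block, with Benjamini-Hochberg adjustment over all of them at 0.05. The pseudocount understates changes of low genes. Spike-ins were left out. For TPM each library was rescaled over the rows without spike-ins and the same test was run. GC content and positions came from the longest transcripts of GENCODE 29 (GRCh38; 94.4% of tested genes matched, all 41 of those described), and the GC correction was a lowess with a span of 0.3 in each library. The fit was tested on simulated data. Of the tests planned for counts and for TPM, that for TPM applied.

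The genes, lists, partner pairs and tests were chosen with earlier results of these data known, and no set test was run. Library values are given for the 3 smallest p of each role, for genes that rose or whose direction differed between scales, and for a few others where a library decided a call, chosen after their values were seen; for other lists the 2 smallest p are named, and a few genes are not reported here. Promoter windows are RefSeq's. Replicate numbers did not pair the libraries: same-numbered deviations had correlations of -0.0137, 0.00455 and -0.0385. Alternatives were other scalings, pseudocounts, filters, a fit without trend, a replicate block, GC correction and each library left out.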

Additional observations from a re-analysis of the deposited data

How the results depend on the processing

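Of the 41 genes, 28 were lower in the main fit and in all 19 alternatives, and 37 kept their call in the 6 fits that left out a library, where between 37 and 40 were lower. As TPM, 28 were lower and 1 higher, the median log2 fold change was -0.40, 9 recombination and 2 end joining and other genes were lower, 50 other repair genes were lower and 13 higher, and FANCE, PMS2 and RAD9A were at 0.18, 0.0234 and 0.21; with median-ratio rescaling 1 gene was higher, the median was -0.40, 56 other repair genes were lower and 15 higher, and the same 3 genes were at 0.18, 0.0248 and 0.21. As TPM with GC correction the median was -0.36, 2 end joining and other genes were lower, 24 other repair genes were higher, and RAD50, FANCE, FANCF, PMS2, ATM, RAD9A and RAD21 were at 0.0391, 0.0546, 0.0048, 0.0796, 0.0767, 0.0473 and 0.0617. As TPM without sgMETTL1.3 replicate 1, 3 genes were higher, the median was -0.35, 23 other repair genes were higher, and RAD50, FANCE, PMS2, ATM, RAD9A and RAD21 were at 0.0569, 0.15, 0.0631, 0.0608, 0.17 and 0.0639. A pseudocount of 5 gave a median of -0.66. Other repair genes called higher numbered 1 with a mean filter of 5, 4 with GC correction, and 1 to 5 when a library was left out. In the TPM fit of all libraries 10.7% of other repair genes were called higher, against 24.8% of all genes, and 41.3% lower, against 25.3%. For GC-corrected TPM values these shares were 19.8% against 33.0% higher and 55.4% against 33.4% lower. Leaving out sgMETTL1.3 replicate 1, the TPM shares were 19.0% against 36.3% higher and 57.0% against 34.3% lower. Shares of all genes are not given for median-ratio rescaling or the replicate block. The cause of the shifts between fits was not tested.

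The replicate block, whose numbers do not pair the libraries, gave 37 genes lower (FANCF and PMS2 lost) and 4 other repair genes higher, and also 37 and 4 with GC correction. As TPM with replicate block, 28 genes were lower, the median was -0.40, 9 recombination and 2 end joining and other genes were lower, 47 other repair genes were lower and 11 higher, and FANCE, PMS2 and RAD9A were at 0.18, 0.0234 and 0.21. The unknown depth limits what can be said of low transcripts such as FANCF.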
